A study of Ovis aries with 16 samples.

Results

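TNF, IL1B and the antagonist IL1RN were followed in the fetal sheep hippocampus after transient hypoxia with and without ketamine. The 3 genes were chosen with earlier results of these data known. Their probes were taken by name from the array annotation, in which each gene had 1 probe. They were 3 of 959 named genes on the array and 3 of 819 named genes tested. RNA from 16 late gestation fetuses with chronic catheters, mostly twins, was labeled with Cy3 and hybridized to 1 Agilent ovine array per fetus. Normoxia control (NC, n = 3) fetuses had 30 min of normoxia without ketamine, and normoxia ketamine (NK, n = 4) fetuses had the same after ketamine, an anesthetic that blocks NMDA receptors, at 3 mg/kg iv. Hypoxia control (HC, n = 5) fetuses had 30 min of low oxygen in the air their mother breathed, and hypoxia ketamine (HK, n = 4) fetuses had that hypoxia after the same dose. All had 23.5 h of normoxia afterwards, and the hippocampus was collected at 24 h. The arrays lay on 2 slides of 8, each with all 4 groups.

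IL1B and TNF are secreted cytokines made early in inflammation, in the brain chiefly by microglia and by macrophages that enter it. IL1B binds the IL1 receptor and TNF binds its own receptors, and both routes lead to NF-kB and MAP kinases and so to chemokines, adhesion molecules and further cytokines. IL1RN binds the IL1 receptor without starting a signal and so competes with IL1B, and its own gene is induced in the course of inflammation.

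The probe sequences are shown because each gene rested on this one 60-base oligomer. The IL1B probe is given as far as the stop codon of the message, in capitals, the IL1RN probe is given whole, and of the TNF probe the last 30 bases are given, with the AATAAA hexamer of the polyadenylation signal in capitals.
IL1B: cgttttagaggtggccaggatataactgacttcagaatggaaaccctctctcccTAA
IL1RN: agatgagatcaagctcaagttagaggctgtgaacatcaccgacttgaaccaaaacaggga
TNF: agaAATAAAgtgtcctgagaaaagaaaaaa
The annotation placed the start of the probes at base 776 of the IL1B sequence, base 76 of the IL1RN sequence and base 1618 of the TNF sequence from which they were designed. G and C made up 45% of each. The longest stretch that a probe shared with any other probe of the array was 12 bases for IL1B, 13 for IL1RN and 14 for TNF. The IL1B probe was printed in 5 spots per array and the others in 1. In the RefSeq annotation of the ARS-UI_Ramb_v3.0 assembly IL1B and IL1RN were on the same chromosome with 7 protein-coding genes between them, IL1B beside IL1A and IL37. TNF was on another chromosome between LTB and LTA.

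Signals are given as log2 of the background-subtracted intensity relative to the 75th percentile of the same array, so 0 is the level of that percentile. The IL1B probe was well above background on all 16 arrays. IL1B, the agonist cytokine, was at -3.35, -3.35 and -3.03 in NC and at -3.41, -3.49, -3.15 and -3.12 in NK. In HC it was at -1.58, -2.41, -2.82, -1.24 and -2.29, and in HK at -3.59, -2.06, -3.08 and -2.87, in the order of the replicate numbers. The 5 HC arrays were all above the 7 normoxic arrays, with replicates 4 and 1 highest. Of the HK arrays, replicate 2 was within the HC range and replicate 1 below every other array. The SD between the 5 spots of one array had a median of 0.0808 and ran from 0.0265 to 0.242, which is technical spread only. Between fetuses the SD was 0.64 in HC and 0.18 in NC.

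TNF was dimmer. It was at -6.49, -6.12 and -7.51 in NC and at -6.29, -5.91, -7.34 and -6.39 in NK, and was well above background on 2 of 3 and 3 of 4 of these arrays. In HC, TNF was at -5.41, -3.34, -4.55, -3.96 and -5.08 and well above background on 5 of 5 arrays. In HK it was at -7.12, -3.60, -6.29 and -6.94, well above background on 2 of 4. All HC arrays were above all normoxic arrays. HK replicate 2 was at the level of the highest HC array, and the other 3 HK arrays were within the normoxic range. The HC arrays, all well above background, spanned 4.18-fold.

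IL1RN, the antagonist, was not well above background on any of the 3 NC arrays, where it measured -7.10, -6.92 and -7.39. In NK it was at -8.16, -6.57, -6.98 and -7.28 and well above background on replicate 2 alone. In HC, IL1RN was at -5.98, -3.11, -4.56, -4.03 and -5.91 and well above background on 5 of 5 arrays. In HK it was at -6.70, -5.01, -6.50 and -5.51 and well above background on replicates 2 and 4. The HC arrays did not overlap with the normoxic arrays, while HK replicates 2 and 4 were within the HC range, replicate 1 within the normoxic range and replicate 3 between the ranges. By mean level the order of the groups was HC, HK, NC, NK for IL1B and HC, HK, NK, NC for TNF. For IL1RN it was HC and then HK, with NC and NK near background and not ranked. NC and NK differed by less than their spread for each gene.

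**Figure D1:**
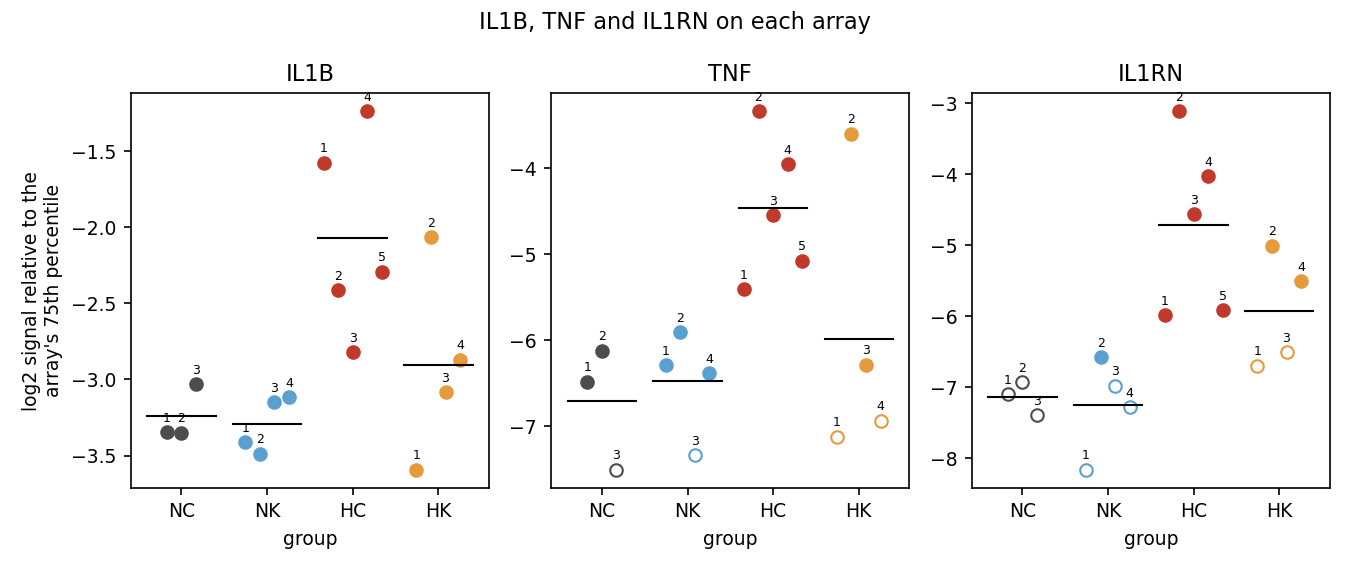
Log2 signal relative to the 75th percentile of the array (vertical axis) for IL1B, TNF and IL1RN in the 4 groups (horizontal axis), 1 point per fetus with its replicate number. Filled points were well above background, open points were not, and lines are group means; the 5 HC points of each gene lie above all 7 normoxic points, and HK replicate 2 is the highest HK point of each gene.

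The comparison of HC with NC asks what hypoxia did without ketamine. All 3 genes were higher in HC at an unadjusted p below 0.05, called the criterion here, where 4.54% of the 12543 probes tested were higher at it. For all 3 the HC and NC arrays did not overlap with HC higher, as for 2.89% of the probes tested. IL1B was 2.26-fold higher, a log2 difference of 1.17 (SE 0.34), with limma's unadjusted p = 0.00418 and an adjusted p of 0.211. TNF was 4.73-fold higher, a log2 difference of 2.24 (SE 0.70), with limma's unadjusted p = 0.00631 and an adjusted p of 0.239. IL1RN was higher (limma's unadjusted p = 0.00124, adjusted p = 0.181), by 3.94-fold with its NC values at a background bound. For this bound each NC array was set at the lowest signal well above background on it, or at the IL1RN signal where that was higher, and the measured means were -4.72 in HC and -7.14 in NC. None of the 3 passed the Benjamini-Hochberg threshold, and 2 probes of the array did in HC-NC, where limma called 1356 probes at the criterion. With 1 array left out that number ran from 0 to 41, the most without HC replicate 5, and with a replicate block it was 15, of which IL1RN was 1 with an adjusted p of 0.0489 from limma. With the slide as a block the log2 differences were 1.16 for IL1B, 2.45 for TNF and 2.45 for IL1RN. On slide 1 they were 1.35, 1.93 and 2.46, with IL1B alone at the criterion. On slide 2 they were 0.91, 2.98 and 2.56, but NC had 1 array there, on which TNF and IL1RN were not well above background, so no call is read from that slide. With the authors' values the differences were smaller, at 0.47, 0.19 and 0.15, each at the criterion. With normexp TNF and IL1RN missed it, both at 1.64, and with a second normexp IL1RN missed it, at 0.45. The IL1RN differences in these fits rest on NC values at background, so none is read as a size. In a bulk sample, more cells of a type and more RNA per cell cannot be told apart.

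HK against NK gives the same stimulus after ketamine. IL1RN alone of the 3 was higher at the criterion, where 2.81% of the probes tested were. IL1RN was not well above background on 3 of 4 NK and 2 of 4 HK arrays, so the size of this difference depends on values at background. Its fitted log2 difference was 1.32 (SE 0.58, limma's unadjusted p = 0.0399, adjusted p = 0.938), with 3 of 4 HK arrays above all NK arrays. The call was lost on either slide alone, at 1.52 and 1.12, in 4 of 16 fits with 1 array left out, without HK replicates 2 or 4 or NK replicates 1 or 4, at 1.01, 1.18, 1.01 and 1.31, with values under the background limit raised to it, at 0.82, with quantile normalization, at 1.26, with either normexp, at 0.33 and 0.17, and with the authors' values, at 0.03. IL1B differed by 0.39 (SE 0.33, 95% interval -0.33 to 1.1, limma's unadjusted p = 0.263). TNF differed by 0.49 (SE 0.68, 95% interval -0.96 to 1.95, limma's unadjusted p = 0.478), and without HK replicate 2 by -0.30.

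HK against HC asks whether ketamine changed the level reached in hypoxia. All 3 genes were lower in HK at the criterion, where 1.87% of the probes tested were lower, and none passed after adjustment. IL1B was lower by a log2 difference of -0.83 (SE 0.32, limma's unadjusted p = 0.0193, adjusted p = 0.969), with 3 of 4 HK arrays below all HC arrays. TNF was lower by -1.52 (SE 0.64, limma's unadjusted p = 0.0327, adjusted p = 0.969), again with 3 of 4 HK arrays below all HC arrays. IL1RN was lower by -1.21 (SE 0.55, limma's unadjusted p = 0.0458, adjusted p = 0.969), with 2 of 4 below. TNF and IL1RN were each well above background on only 2 of 4 HK arrays, so the sizes of their differences depend partly on values at background. The HC arrays enter this comparison and the one with NC, so the 2 are not independent. With each array left out in turn the log2 difference ran from -1.11 without HK replicate 2 to -0.60 without HK replicate 1 for IL1B, and from -2.32 to -1.14 for TNF without the same arrays. That of IL1RN ran from -1.53 to -0.81, and the criterion was met in 14, 11 and 6 of 16 such fits for IL1B, TNF and IL1RN. With only the 2 groups compared all 3 missed it, at -0.83, -1.52 and -1.21, as they did with normexp, at -0.47, -0.43 and -0.35. TNF and IL1RN missed it with a second normexp, at -0.34 and -0.35, and TNF with the authors' values, at -0.12. Over all alternatives the difference nearest 0 was -0.34 for IL1B and -0.13 for IL1RN. With the slide as a block the differences were -0.83 for IL1B, -1.60 for TNF and -1.22 for IL1RN, the last with limma's unadjusted p = 0.0526. On slide 1 the differences were -0.83, -0.99 and -1.31 and on slide 2 -0.86, -2.09 and -1.17, and of these 6 only TNF on slide 2 met the criterion.

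Ketamine in normoxia, NK against NC, gave log2 differences of -0.05 for IL1B (SE 0.36, 95% interval -0.82 to 0.72) and 0.23 for TNF (SE 0.73, 95% interval -1.34 to 1.79). None of the 3 met the criterion in either direction, where 1.78% of the probes tested did. IL1RN was near background in both groups and no fold is given. The interaction asks whether the difference with ketamine depended on hypoxia, and none of the 3 met the criterion, where 3.44% of the probes tested did. It was -0.78 for IL1B (SE 0.48, limma's unadjusted p = 0.124), -1.75 for TNF (SE 0.97, limma's unadjusted p = 0.0943) and -1.1 for IL1RN (SE 0.84, limma's unadjusted p = 0.210), the last with its NC values below the background limit. With each array left out in turn it ran from -2.54 without HK replicate 2 to -1.35 without NC replicate 3 for TNF, and from -1.06 without HK replicate 2 to -0.55 without HK replicate 1 for IL1B. It met the criterion in 1 of 16 such fits for TNF and in 2 for IL1B. With a replicate block over all groups it was -1.96 for TNF (limma's unadjusted p = 0.0287) and -1.31 for IL1RN (limma's unadjusted p = 0.0313).

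**Figure D2:**
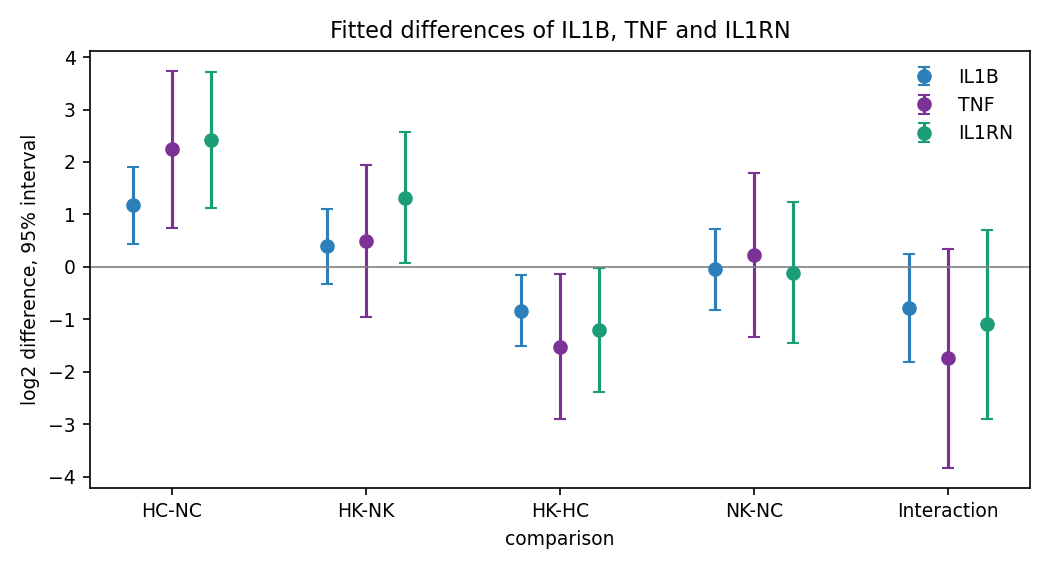
Log2 difference (vertical axis) of IL1B, TNF and IL1RN in each comparison and in the interaction (horizontal axis), from the fit of all 16 arrays, with 95% intervals as bars. The intervals in HC-NC lie above 0 and those in HK-HC below 0, and those of NK-NC and of the interaction include 0.

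The 3 genes did not order the fetuses alike. Among HC fetuses, replicate 2 was highest in TNF and IL1RN but below replicates 4, 1 and 5 in IL1B, and replicate 1 was second in IL1B but lowest in TNF and IL1RN. Within each array, IL1RN minus IL1B had a log2 mean of -3.90 for NC and -3.96 for NK, and of -2.65 for HC and -3.03 for HK. Its range in HC ran from -4.40 to -0.70, so these 2 genes changed unequally between HC fetuses. For IL1RN minus TNF the means were -0.43 for NC and -0.77 for NK, and -0.25 for HC and 0.06 for HK. These differences compare 2 probes of unlike brightness. In normoxia IL1RN was well above background on 1 of 7 arrays, so the NC and NK means are values at background and only the spread within HC is read. After removal of the group means, TNF and IL1RN had r = 0.651 over the 16 arrays (Spearman's rho 0.606), and r = 0.603 without HK replicates 1 and 2. For TNF and IL1B r was 0.332, and -0.218 without the same 2 arrays. For IL1B and IL1RN r was 0.167, and -0.187 without HK replicate 2 and HC replicate 4. These 3 correlations are descriptions over arrays that share slides, with no test.

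Of the 816 other named genes tested, those most like IL1B over the 16 arrays were IRF1, CXCL8, TLR2, ICAM1, TLR4 and RHOB, with Pearson's r from 0.862 to 0.793. After removal of the group means their r lay between 0.542 and 0.711. IRF1 is a transcription factor induced by cytokines, CXCL8 a chemokine that draws neutrophils, and ICAM1 an adhesion molecule for leukocytes. TLR4, CD5, PFK-L, PLAUR, IRF1 and CLEC6A were most like TNF, with r from 0.866 to 0.824, and from 0.677 to 0.839 after removal of the group means. For IL1RN they were PSMB8, TLR4, CD5, IRF1, PSME2 and SLC2A5, with r from 0.922 to 0.875 and from 0.680 to 0.840. PSMB8 is a subunit of the immunoproteasome and PSME2 a subunit of its activator, and SLC2A5 is a fructose transporter. TLR4 and IRF1 were among the 6 of each member.

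**Figure D3:**
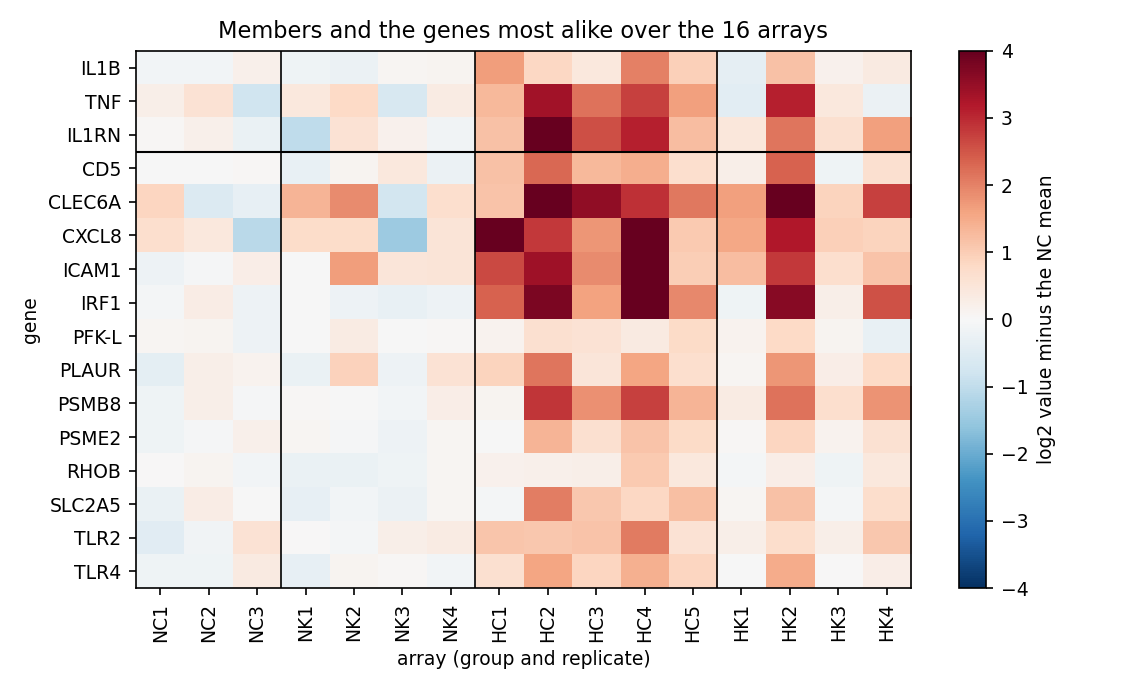
Log2 value minus the NC mean (color, with the scale ending at -4 and 4) of IL1B, TNF, IL1RN and the genes most like them (rows) on each of the 16 arrays (columns, group and replicate). HC replicates 2 and 4 and HK replicate 2 are the arrays with the deepest red over most rows, and the 7 normoxic arrays are pale in most rows.

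Other genes of these pathways were read from lists, of which the array covered a part, each gene by its brightest probe. The lists, like the 3 members, were chosen with earlier results of these data known, so their counts are descriptions. In HC-NC 20 of the 50 tested genes of the 7 lists had a fitted difference above 0 at the criterion and 3 below, where 4.54% of all probes tested were higher and 6.27% lower. Of the ligands and decoys of the IL1 and TNF families, 5 of 17 were tested. In HC-NC 3 met the criterion, 2 with a fitted difference above 0 (4.54% of all probes) and 1 below (6.27%), and the median log2 difference was 0.66, or 0.13 with TNFSF11 at its bound, against -0.03 over all probes tested. IL18, a cytokine of the IL1 family, was higher by 0.66 (SE 0.25), and the decoy receptor TNFRSF11B differed by -0.77 (SE 0.34). The ligand TNFSF11 was well above background on none of the NC arrays and on 1 of 5 HC arrays, so its call gives neither fold nor direction. TNFSF13B, a survival factor of B cells, differed by 0.72 (SE 0.66) without meeting the criterion.

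Only 3 of 19 genes of processing and secretion were tested, and 1 was higher in HC-NC, where 4.54% of all probes were, with a median of 0.38. This was TXNIP, which binds thioredoxin and the NLRP3 inflammasome, with 0.85 (SE 0.26). TIMP3, an inhibitor of the enzyme that releases TNF, differed by 0.38 (SE 0.25) and the protease CTSB by -0.06 (SE 0.13), neither at the criterion. Of the receptors and adaptors 4 of 27 were tested, and in HC-NC 2 were higher (4.54% of all probes) and 1 lower (6.27%), with a median of 0.45. TNFRSF1A, the main TNF receptor, was higher by 0.47 (SE 0.18), and MYD88, the adaptor of the IL1 receptor and of most TLRs, by 0.43 (SE 0.17). TRAF3, an adaptor that restrains part of NF-kB signaling, was lower by -0.61 (SE 0.13, limma's unadjusted p = 0.000421), and IRAK4, the kinase next to MYD88, differed by 0.49 (SE 0.26) without meeting the criterion.

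Of the relays 5 of 28 were tested, and 3 were higher in HC-NC, where 4.54% of all probes were, with a median of 0.34. NFKBIA, the inhibitor of NF-kB that NF-kB itself induces, was higher by 1.30 (SE 0.35), CEBPB, a transcription factor of the acute phase, by 1.25 (SE 0.47), and the kinase IKBKB by 0.30 (SE 0.14). JUN differed by -0.27 (SE 0.14) without meeting the criterion.

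Of the genes known to respond to IL1B or TNF, a few differed much and most did not. Of 42 listed 16 were tested, and in HC-NC 6 were higher (4.54% of all probes) and 1 lower (6.27%), with a median of 0.18. SELP, an adhesion molecule of activated endothelium and platelets, was higher by 4.15 (SE 0.98), CXCL8, well above background on 2 of 3 NC arrays, by 3.76 (SE 1.19), IRF1 by 2.81 (SE 0.78) and ICAM1 by 2.74 (SE 0.69). SELP was at -0.43, -0.39, -1.34, 1.39 and -4.04 in HC and between -6.03 and -4.52 in NC. HC replicate 5 was thus near the NC range in SELP, and likewise lowest among HC in CXCL8 and ICAM1. CXCL10 and PLAUR were also higher and PLAU lower, at 4.70, 1.15 and -0.45, and of these CXCL10 and PLAU are named after their values were seen. The other 9 tested did not meet the criterion, among them IL6, PTGS2, SOD2, C3, PTX3 and NOS2, which are likewise named after their values were seen.

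Of the sensors upstream of IL1B and TNF 10 of 17 were tested, and 5 were higher in HC-NC, where 4.54% of all probes were, with a median of 0.48. CD14, the coreceptor for lipopolysaccharide, was higher by 1.97 (SE 0.45), TLR2 by 1.20 (SE 0.30) and TLR4 by 1.07 (SE 0.31). CLEC6A, a lectin receptor of myeloid cells, was well above background on none of the NC arrays. With NC at the same kind of background bound as for IL1RN, HC was 3.23-fold higher, which is not a lower confidence limit. TLR6, named after its values were seen, was higher by 0.53 (SE 0.23). Of the cytokines and regulators that dampen inflammation 7 of 21 were tested, with a median of 0.02 in HC-NC. PPARG alone of the 7 was higher, by 0.52 (SE 0.18), where 4.54% of all probes were. IL10 differed by 0.55 (SE 0.38), NR3C1 by -0.33 (SE 0.22) and ZFP36 by 0.25 (SE 0.18), none at the criterion.

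**Figure D4:**
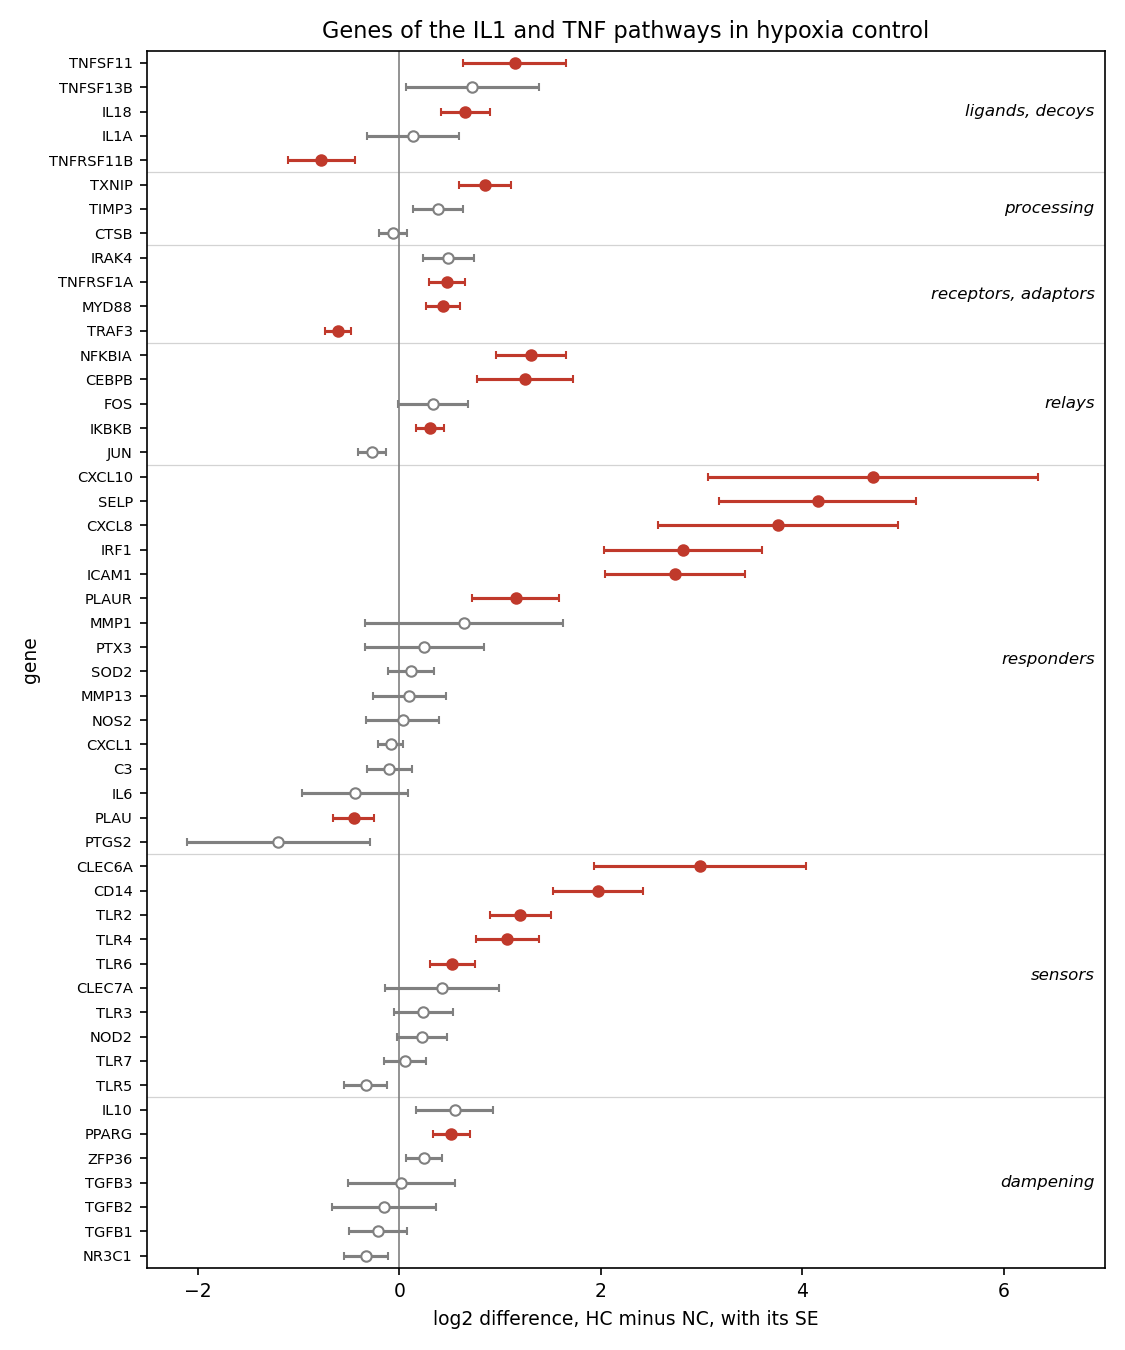
Log2 difference of HC from NC (horizontal axis) with its SE as a bar for the tested genes of the 7 lists (vertical axis), filled red where the unadjusted p was below 0.05 and open otherwise. CXCL10, SELP and CXCL8 lie farthest to the right; TNFSF11, MMP13 and CLEC6A were well above background on none of the NC arrays, so their points are not sizes.

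In HK-HC 6 of the 50 tested genes of these 7 lists were lower at the criterion and 0 higher, where 1.87% of all probes tested were lower and 2.86% higher. The lower ones, named after their values were seen, were 3 sensors, 1 relay, 1 gene of processing and 1 dampening regulator. CD14 differed by -1.1 (SE 0.41), TLR4 by -0.64 (SE 0.29), TLR2 by -0.63 (SE 0.28), CEBPB by -1.09 (SE 0.43), TXNIP by -0.58 (SE 0.23) and PPARG by -0.44 (SE 0.17). None of the 16 tested responders met the criterion in HK-HC, and their median was -0.36, against 0.02 over all probes tested. In HK-NK 4 of the 50 were higher and 0 lower, where 2.81% of all probes were higher and 2.46% lower. SELP, CXCL10 and IRF1 were higher, by 2.52 (SE 0.95), 3.72 (SE 1.58) and 1.75 (SE 0.76), and of the sensors TLR7 by 0.57 (SE 0.20). In NK-NC 3 of the 50 met the criterion, where 0.71% of all probes were higher and 1.07% lower. TRAF3 and TLR5 were lower, at -0.37 (SE 0.14) and -0.53 (SE 0.22), and TNFSF11 met the criterion near background in both groups, so no direction is given. Of these, CXCL10, TLR7 and TLR5 are named after their values were seen, and no adjusted p was below the threshold.

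Markers of cell types that could be in the tissue were read beside the 3 genes. Of the microglia and macrophage list 6 of 20 were on the array, and all 6 were tested. FCER1G and FCGR1A were higher in HC-NC, by 0.72 (SE 0.27) and 1.13 (SE 0.44), where 4.54% of all probes were. FCGR1A was lower in HK-HC, at -1.0 (SE 0.40), where 1.87% of all probes were. The summed signal of the list, mostly CTSS, was 2.13, 2.66 and 2.69 times the 75th percentile of the array in NC and between 2.29 and 2.53 in NK. It was 2.17, 5.07, 4.84, 2.88 and 4.19 in HC and 2.40, 4.89, 2.54 and 3.67 in HK. HC replicates 1 and 4 were the lowest HC arrays in this sum, while FCGR1A of the same list was highest of all 16 arrays on HC replicate 4, at -2.12. FCGR2B and CYBB were well above background on 4 and 6 of 16 arrays.

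Of the neutrophil list 3 of 15 were on the array, and MMP9 was well above background on 1 of 16. The sum, mostly CATHL3, was between 0.139 and 0.289 in NC and between 0.0587 and 0.275 in NK. It was 0.281, 1.60, 5.79, 0.351 and 1.02 in HC and 0.336, 6.06, 0.297 and 7.20 in HK. CATHL3 and LTF, the 2 genes of the list that were tested, were higher in HK-NK, where 2.81% of all probes were. The differences were 4.42 (SE 1.26) and 1.98 (SE 0.68). HK replicates 2 and 4 were the highest of all in this sum, and they alone in HK had IL1RN well above background, at -5.01 and -5.51. HC replicate 1 was the lowest HC array both in this sum and in IL1RN, at -5.98. HC replicate 4, with IL1RN at -4.03, was also among the low HC arrays in the sum. A link between this sum and IL1RN was not tested.

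The choroid plexus sum, mostly TTR, was above 30 on NC replicate 2, NK replicate 2, HC replicates 2 and 5 and HK replicates 2 and 4, with values of 85.4, 71.6, 42.0, 78.1, 50.9 and 35.5. On the other arrays it was at most 8.85. The neuron sum, mostly SST, was 6.94 on HC replicate 5 and between 27.7 and 45.6 on the other arrays. Of the 6 neuron genes GRIA1, GRIA2 and GRIA4 were lower in HC-NC, at -0.65, -0.42 and -0.35, where 6.27% of all probes were. GRIA4 alone of the 6 neuron genes met the criterion in HK-HC, at 0.37, where 2.86% of all probes were higher. It alone also met the criterion in HK-NK, at 0.31, where 2.81% of all probes were higher. The list median was 0.27 in HK-HC and -0.23 in HK-NK, where 4 of the 6 had a difference below 0. The astrocyte sum, mostly AQP4, lay between 57.0 and 91.1. GJA1 alone of 5 astrocyte genes met the criterion in HC-NC, higher by 0.74 (SE 0.24), where 4.54% of all probes were. The list median was 0.07, with SLC1A3 and SLC1A2 at -0.36 and -0.40. Of the 4 T and B cell markers tested IL2RA met the criterion in HC-NC with a fitted difference above 0, where 4.54% of all probes did. Only 1 of 3 NC arrays had IL2RA well above background, so no size is given. CD4 was well above background on 2 of 16 arrays, and the sum, mostly CD247, lay between 0.489 and 1.06. HBB, the only 1 of 8 listed red blood cell genes on the array, lay between 5.97 and 34.2. AHSP, a red blood cell gene outside the list that is named after its values were seen, differed in HC-NC by 2.52 (SE 0.69) at the criterion by 1 probe and by 1.60 (SE 0.82) without meeting it by the other. The endothelial sum lay between 0.916 and 1.45 in normoxia, between 1.33 and 3.47 in HC and between 1.14 and 1.91 in HK. SELP, also a responder, belongs to that list and made up 75.8% of the sum on HC replicate 4 and 4.56% on HC replicate 5. Without SELP the sum lay between 0.905 and 1.41 in normoxia, between 0.838 and 1.69 in HC and between 0.993 and 1.64 in HK. SELE and TEK were each well above background on 1 of 16 arrays. KDR was lower in HK-NK at -0.51, where 2.46% of all probes were. The other 4 endothelial genes tested had differences above 0 in HK-NK, and the list median was 0.23. None of the 7 oligodendrocyte genes listed was on the array. The part of any of these cell types in the levels of IL1B, TNF and IL1RN was not tested.

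**Figure D5:**
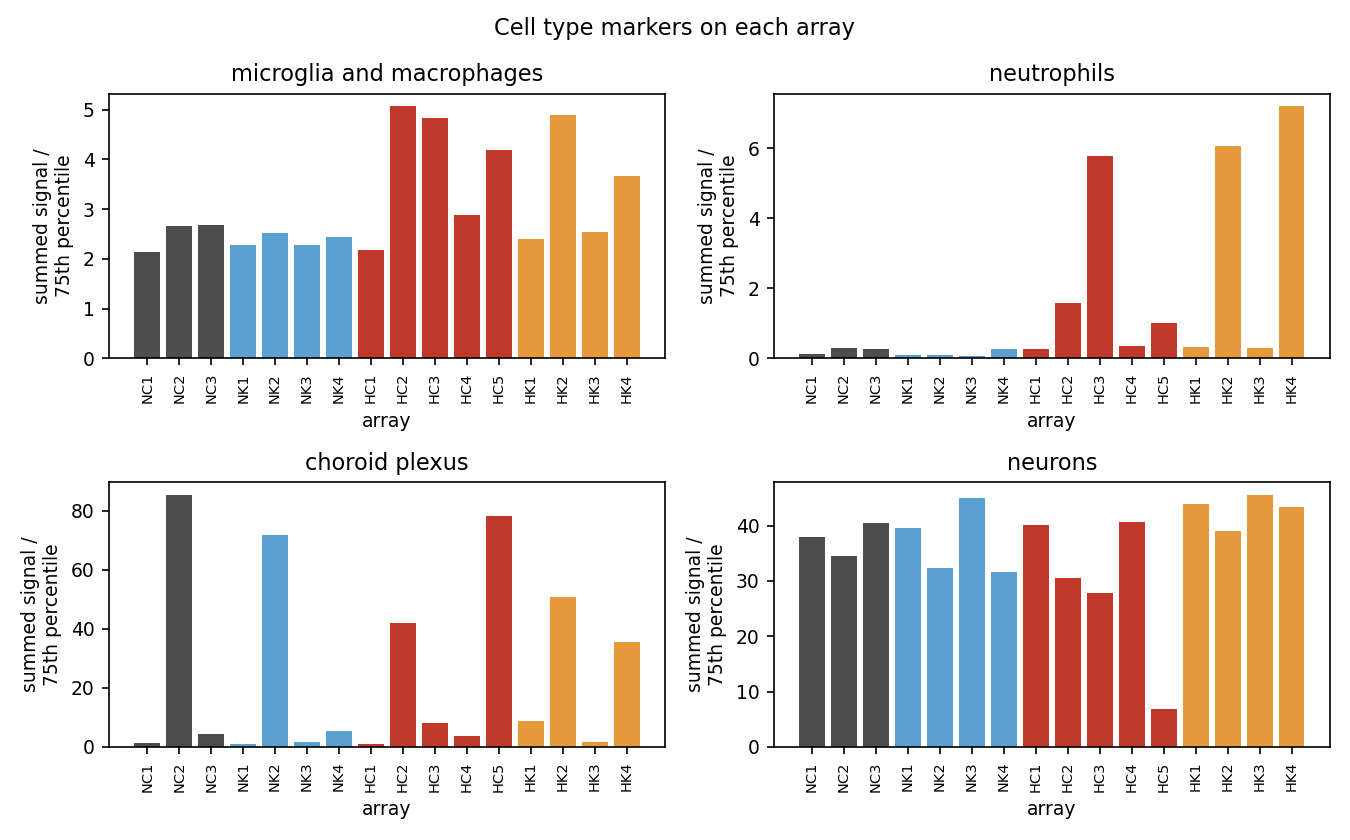
Summed signal of the markers of 4 cell types in multiples of the 75th percentile of the array (vertical axes, from 0) on each array (horizontal axes, colored by group). The microglia and macrophage sum reaches 5.07 on HC replicate 2 and 4.89 on HK replicate 2, and the neutrophil sum 7.20 on HK replicate 4.

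Each of the 3 genes rested on 1 probe, and TNF and IL1RN on 1 spot per array. In NC, IL1RN was below the limit of background on every array and TNF on 1, so the size of their differences from NC is less certain than the direction. In HK each was well above background on 2 of 4 arrays, so the size of their differences from HC is uncertain too. The groups had 3 to 5 fetuses, none of the differences of the 3 genes passed adjustment in the fit of the 4 groups, and those of HK from HC changed in size with HK replicate 2. The study assigned each pregnancy at random to normoxia or hypoxia. Fetuses that shared a pregnancy could not be told from the labels, and the fit of the 4 groups treated fetuses as independent. Protein was not measured, and only the 24 h time point was sampled.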

How the data were processed

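RNA of 16 hippocampi was measured on 16 one-color arrays. Per the file headers, the deposited intensity of each spot was background-subtracted by Feature Extraction 10.1.1.1 without normalization between arrays, with a mark for spots well above background. The log2 table that the authors deposited was an alternative. Log2 of the intensity was taken, the 75th percentile of each array subtracted, and spots of a probe averaged without control and outlier spots. The 75th percentile lay between 881.5 and 1199 and 76.7% to 82.6% of spots were well above background. Of 15008 probes, the 12543 well above background on at least 3 arrays were tested in a fit of the 4 groups with limma 3.58.1 in R 4.3.3, two-sided, with Benjamini-Hochberg adjustment over all of them. The fit was tested on simulated data. For probes of several spots the mark was first read without outlier spots, which gave 12541 probes. It was then read over all spots because that gave the number in an earlier account of these data, and 2 probes differ. Gene names came from the annotation and RefSeq, for 1560 probes.

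Listed genes were named where they had up to 4 of the smallest unadjusted p in HC-NC, and 6 genes were named as most like each member. The members and lists were chosen with earlier results of these data known. Alternatives were other background corrections, scalings, filters on dim probes, the authors' values, the slide, the replicate number, only the groups compared, and each array left out. A floor and a second normexp correction were added after the data were seen. Labels give NC and NK the same replicate numbers, and their arrays deviated together from the group means, with correlations over probes of 0.37, 0.31 and 0.21. For HC and HK they were 0.39, 0.31, 0.07 and 0.12, so the numbers were not taken as pairs there. Twins may share a pregnancy, which the labels do not give.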

Additional observations from a re-analysis of the deposited data

Results flagged for a closer look

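Of 156 checks of 4 or 5 fetuses of a group, over the 52 genes named, 9 had 1 fetus set apart from the others by most of the range of its group in log2 signal, and chance flags about 1 in 20. None of the 9 flagged was in IL1B, TNF or IL1RN. TNF on HK replicate 2, at -3.60, was nevertheless far above the next HK array, at -6.29, without being flagged. In NK, replicate 3 was lowest in IRAK4 at -4.73, CXCL8 at -7.50 and FCER1G at -1.45, the last close to the next at -1.35. CXCL8 was not well above background on that array. Also in NK, replicate 2 was highest in PFK-L at 0.32 and replicate 1 highest in TLR5 at -5.10. In HC, replicate 5 was lowest in NFKBIA at 0.58 and in GRIA2 at 1.35, and replicate 4 highest in RHOB at -1.22. In HK, replicate 2 was lowest in TNFSF11 at -8.44, a level near background.

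The difference with ketamine depended on hypoxia at an unadjusted p below 0.05 in limma's interaction for 4 of 52 named genes, none after adjustment, where 3.44% of all probes tested were called and some of the genes had been named for a small p. The interaction was -0.60 for TNFRSF1A, 0.60 for TRAF3, -1.31 for FCGR1A and 0.66 for GRIA4 on the log2 scale.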

How the results depend on the processing

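All values are log2 differences, and in these alternatives they missed an unadjusted p below 0.05 in limma where the result had met it, unless said otherwise. In HC-NC, IL1B gave 0.91 on slide 2. IL1RN gave 2.46 on slide 1, 1.64 with normexp and 0.45 with normexp without spots far below background. TNF gave 1.93 on slide 1 and 1.64 with normexp. With the authors' values the HC-NC differences were 0.47 for IL1B, 0.19 for TNF and 0.15 for IL1RN, and TNF gave 0.54 with the second normexp, all still at the criterion. In HK-HC, IL1B gave -0.83 with only the 2 groups compared and on slide 1, -0.86 on slide 2 and -0.47 with normexp. TNF gave -1.52 with only the 2 groups, -0.99 on slide 1, -0.43 with normexp, -0.34 with the second normexp and -0.12 with the authors' values. IL1RN gave -1.21 with only the 2 groups, -1.31 on slide 1, -1.17 on slide 2, -1.22 with the slide as a block and -0.35 with either normexp. In HK-NK, IL1RN gave 1.52 on slide 1, 1.12 on slide 2, 1.26 with quantile normalization, 0.82 with a floor, 0.33 with normexp, 0.17 with the second normexp and 0.03 with the authors' values. In NK-NC the sign was reversed for IL1B with the authors' values, at 0.01, and normexp, at 0.61, and for IL1RN on slide 2, at 0.26, and with normexp, at 0.95. IL1RN was near background in NC and NK, so neither sign nor size is read from its NK-NC values, and no size from its HC-NC values. TNF gave 0 in NK-NC with the floor and with the second normexp. The interaction met the criterion where it had not for TNF on slide 2, at -2.73, where NC was 1 array on which TNF was not well above background, so it is not read as a result. With each array left out in turn, HC-NC met the criterion in 16 of 16 fits for each of the 3 genes, from 0.97 to 1.36 for IL1B, 1.84 to 2.53 for TNF and 2.02 to 2.73 for IL1RN. HK-HC met it in 14 fits for IL1B, from -1.11 to -0.60, in 11 for TNF, from -2.32 to -1.14, and in 6 for IL1RN, from -1.53 to -0.81. IL1RN in HK-NK met it in 12 fits, from 1.01 to 1.57. TNF in HK-NK ran from -0.30 to 0.87. The interaction ran from -1.06 to -0.55 for IL1B and from -2.54 to -1.35 for TNF, and met the criterion in 2 fits and 1 fit. NK-NC ran from -0.11 to 0.06 for IL1B, -0.34 to 0.19 for IL1RN and -0.18 to 0.52 for TNF. TNF and IL1RN have no value with a filter that asks for all 16 arrays, and no other probe of the 3 genes exists.

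When replicates of the same number formed a block across the 4 groups, the interaction was -1.96 for TNF and -1.31 for IL1RN, and with the block within each oxygen group -1.87 and -1.41, all at the criterion. IL1RN in HC-NC was then 2.63, measured against NC values at background, with an adjusted p of 0.0489 from limma. HC and HK numbers were not taken as pairs, and the cause was not tested.

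Planned normexp was distorted on 6 arrays by 32 spots with a local background far above their signal, and was kept as run. It moved the median of all probes to 0.34 in HC-NC, 0.28 in NK-NC and -0.31 in the interaction. The version without those spots and the floor were chosen after the data were seen. In HC-NC other signs were reversed with normexp for GRIA4 at 0.52, NR3C1 at 0.71, PLAU at 0.22, TNFRSF11B at 0.51 and TRAF3 at 0.10. CTSB gave 0 with the replicate block and 0.15 on slide 1, TNFSF13B -0.27 on slide 1 and ZFP36 -0.19 on slide 2. TNFSF11 gave -0.22 with the floor and -0.09 with the second normexp, and -0.02 with the floor in NK-NC. With normexp TLR5 gave 0.78 and TRAF3 0.13 in NK-NC, and the interaction was -0.28 for GRIA4 and -0.04 for TRAF3.

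The probes at the criterion were 1356 in HC-NC, and 585 with normexp and 706 on slide 2. In HK-HC they were 594, and 92 with normexp, 975 with the second normexp, 1055 and 1205 with the replicate blocks over all groups and within each oxygen group and 1071 without HC replicate 1. In HK-NK they were 660, and 73 with normexp, 1068 with the replicate block and 289 on slide 2. In the interaction they were 431, and 98 with normexp, 666 and 759 with the replicate blocks and 656 without HC replicate 1. In NK-NC they were 223, and 18 with normexp, 126 with the second normexp, 385 with the block within each oxygen group and 147 with the filter of all 16 arrays. The share of these that was higher was 42.0% in HC-NC, and 53.2% with normexp and 23.4% with the second normexp. In HK-HC it was 60.4%, and 84.6% with the second normexp and 47.0% on slide 1. In NK-NC it was 39.9%, and 55.6% with normexp, 21.4% with the second normexp, 25.6% with the floor and 50.6% without NC replicate 3. In the interaction it was 71.2%, and 59.2% with normexp, 91.8% with the second normexp, 54.3% on slide 1 and 60.5% on slide 2.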
